A study of Mus musculus with 4 samples.

Results

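The 10 genes described here encode the local angiotensin system of the aortic wall and 3 proteins that shorten receptor signals: the receptors Agtr1a, Agtr1b and Agtr2, the precursor Agt, the enzymes Ace and Enpep, the renin-binding protein Atp6ap2, and the regulators of G protein signalling Rgs2, Rgs4 and Rgs5. They were taken as a named list, not by their values, and all 10 are among the 18112 genes that the 3 analysed count files share. Each was read in 3 classes of cells defined by marker counts in unique molecular identifiers (UMIs, 1 for each captured transcript). Smooth muscle cells had at least 5 UMIs of Myh11, the smooth muscle myosin heavy chain, and 0 of Pdgfra. Fibroblasts had at least 1 UMI of Pdgfra, a growth factor receptor of fibroblasts, and at most 2 of Myh11. Macrophages had at least 10 UMIs of C1qa, C1qb and Lyz2 together and fewer than 5 of Myh11. Endothelial cells, a further group, had at least 5 UMIs of Pecam1, Cdh5 and Vwf together, fewer than 5 of Myh11 and 0 of Pdgfra.

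The study compared how the transcriptomes of ascending aortic cells that come from the second heart field (SHF) and of cells with another origin respond to angiotensin II (AngII). All groups are male Mef2c-mTmG mice, a strain whose name joins Mef2c with a membrane reporter that changes colour where a recombinase has acted. Aortas of mice without treatment (baseline) and of mice infused with AngII for 3 days were digested, and living single cells were sorted by lineage before droplet capture with 3′ chemistry. The groups are SHF baseline, SHF AngII and CNC AngII, where CNC is a lineage name that the labels do not spell out, and CNC baseline was not analysed here. Each group is 1 library, so nothing below has a replicate check, no test was made, and a difference between lineages or treatments cannot be told apart from one between libraries. The labels do not give the age of the mice, the number pooled or the AngII dose, and no row of the files is named for the reporter or Cre, so the sort could not be checked.

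Angiotensin II is cut from angiotensinogen (Agt) by renin and then by angiotensin-converting enzyme (Ace), and is degraded by aminopeptidases such as aminopeptidase A (Enpep). In arterial smooth muscle the AT1 receptor, which mice encode in the genes Agtr1a and Agtr1b, couples mainly to Gq and drives contraction, whereas the AT2 receptor (Agtr2) is known to oppose many of these effects. Rgs2, Rgs4 and Rgs5 speed the hydrolysis of GTP by the alpha subunits that AT1 receptors activate, and so act as brakes. Atp6ap2 is the (pro)renin receptor, which is also an accessory subunit of the vacuolar proton pump.

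After filtering, the 3 libraries held 8374, 9299 and 10194 cells whose median depths were 10315.5, 13325 and 12609.5 UMIs. Values are given throughout for SHF baseline first, SHF AngII next and CNC AngII last. There were 2259, 4649 and 6385 smooth muscle cells and 3939, 2640 and 842 fibroblasts. Macrophages numbered 8, 13 and 1764, so they are described in CNC AngII alone. Between 1211 and 2169 cells per library fell in no class, and any pair of libraries shared at most 34 barcodes. The summed level of 6 smooth muscle markers lay between 56310 and 63592 UMIs per 1000000 (CPM) in smooth muscle cells and between 1290 and 4053 CPM in fibroblasts. That of 6 fibroblast markers lay between 11526 and 26057 CPM in fibroblasts and between 1138 and 1376 CPM in smooth muscle cells, where Pdgfra was at 0 by the gate. The gate genes Myh11 and Pdgfra are themselves in these lists. Of 7 macrophage markers, all were detected in the macrophages of CNC AngII, at 31273 CPM summed. They include C1qa, C1qb and Lyz2, which set the gate, so part of this sum follows from it. In the smooth muscle cells of that library the 7 markers summed to 339 CPM, against 2.34 and 1.40 CPM in the other libraries. Of the smooth muscle cells of CNC AngII, 80 had 10 or more macrophage UMIs.

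A level below is the sum of a gene's UMIs over the cells of a class, divided by all UMIs of those cells, in CPM, with an exact Poisson interval at 95% that covers counting error only. A ratio is the log2 of (CPM + 1) over (CPM + 1), where the added 1 is a pseudocount. By this ratio a gene is counted as past 2-fold if its mean CPM over both profiles is at least 10. Other fold differences between levels leave out the pseudocount, so at low levels they are larger than the log2 ratio implies. The baseline file lists 18760 genes under older names and both AngII files list the same 32285, so a difference between AngII and baseline cannot be told apart from a difference in annotation or library preparation. Ratios between classes of 1 library, and between both AngII libraries, are free of the difference in gene list.

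The 3 Rgs genes lie on mouse chromosome 1, and Rgs4 (1:169741477-169747642, minus strand, GRCm38) and Rgs5 (1:169655501-169695813, plus strand) are neighbours, whereas Rgs2 lies apart at 1:143999338-144004161 on the minus strand. Their promoters are shown because, among the genes counted as defined above, Rgs4 differed most between the main classes and Rgs2 and Rgs5 were past 2-fold between libraries in smooth muscle cells, and because neighbours with different patterns can be compared letter by letter. The letters are the 250 bases before each start (RefSeq, GRCm38.p6), 5′ to 3′ on the gene's strand, with matches to a TATA box (TATAAA) or a GC box (GGGCGG), on either strand, in capitals.
Rgs2, chr1:144004150-144004399: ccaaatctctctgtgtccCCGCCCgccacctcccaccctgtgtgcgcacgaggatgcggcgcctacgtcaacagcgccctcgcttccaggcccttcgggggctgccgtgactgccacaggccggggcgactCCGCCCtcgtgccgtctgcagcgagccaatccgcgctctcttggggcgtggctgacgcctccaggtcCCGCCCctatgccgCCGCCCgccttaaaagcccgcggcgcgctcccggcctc
Rgs4, chr1:169747643-169747892: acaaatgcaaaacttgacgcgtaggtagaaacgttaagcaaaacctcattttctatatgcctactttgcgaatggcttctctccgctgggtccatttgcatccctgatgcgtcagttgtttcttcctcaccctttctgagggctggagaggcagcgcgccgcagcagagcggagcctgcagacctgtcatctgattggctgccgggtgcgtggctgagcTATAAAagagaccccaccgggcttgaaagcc
Rgs5, chr1:169655251-169655500: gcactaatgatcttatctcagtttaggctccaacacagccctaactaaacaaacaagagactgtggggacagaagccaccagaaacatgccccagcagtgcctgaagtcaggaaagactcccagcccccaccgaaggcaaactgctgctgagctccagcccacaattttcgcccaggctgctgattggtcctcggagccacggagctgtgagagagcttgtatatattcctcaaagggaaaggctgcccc
The Rgs4 promoter held 1 TATA box that begins at position -31, the Rgs2 promoter held 4 GC boxes, and that of Rgs5 held neither motif. A TATA box stood in 12.4% and a GC box in 32.7% of the 32851 windows of this length, with overlapping matches counted separately. The CArG box, the site of serum response factor in many smooth muscle genes, was found in 0 of the 10 windows of the 9 members that the table holds, and in 1.47% of all windows. A match or its absence describes these letters only.

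Among the receptors, Agtr1a (13:30336441-30382867, plus strand) was detected in smooth muscle cells and fibroblasts of every library, but at low levels. In smooth muscle cells it stood at 2.34 CPM (1.82 to 2.96) in SHF baseline, 1.40 (1.13 to 1.70) in SHF AngII and 1.33 (1.11 to 1.59) in CNC AngII, from 69, 97 and 128 UMIs. In fibroblasts it stood at 5.59 CPM (4.87 to 6.40), 2.72 (2.26 to 3.24) and 1.83 (1.13 to 2.80), from 212, 122 and 21 UMIs. The macrophages of CNC AngII had 0 UMIs in 1764 cells, which allows a level of up to 0.144 CPM and up to 0.170% of cells with a UMI, a limit on detection and not on cells that express the gene. Fibroblasts of SHF baseline were highest, and their interval overlapped no other of these classes. The next 3 levels, in fibroblasts of SHF AngII, smooth muscle of SHF baseline and fibroblasts of CNC AngII, had overlapping intervals, as did both AngII smooth muscle levels.

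Agtr1a was seen in few cells even where it was highest. In SHF baseline 3.01% of smooth muscle cells and 4.39% of fibroblasts had a UMI, against 0 of 77 endothelial cells of that library, at median depths of 12441, 9534 and 8452 UMIs. The exact interval of the endothelial share reaches 4.68%, so neither contrast with it can be told from counting error. In CNC AngII 1.97% of smooth muscle cells had one, against 0 of 1764 macrophages at median depths of 13450 and 11108.5 UMIs. Relative to baseline, the level under AngII was 1.67-fold lower in SHF smooth muscle cells (log2 ratio without a pseudocount -0.74, interval -1.20 to -0.28) and 2.06-fold lower in SHF fibroblasts (-1.04, interval -1.38 to -0.71). In these 2 comparisons the interval excluded 0, whereas between CNC AngII and SHF AngII it did not, at -0.06 (-0.46 to 0.33) in smooth muscle cells and -0.57 (-1.31 to 0.11) in fibroblasts. A mean level under 10 CPM kept Agtr1a out of the count of genes past 2-fold.

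Within fibroblasts of SHF baseline, Agtr1a was concentrated in the 476 cells with a UMI of Cthrc1, a secreted protein of matrix-producing fibroblasts. These cells stood at 15.4 CPM (12.4 to 18.9) and 14.5% of them had an Agtr1a UMI, against 3.76 CPM (3.12 to 4.49) and 3.00% in the 3463 cells without Cthrc1. These 476 cells held 92 of the 212 fibroblast UMIs. Cells with Cthrc1 were deeper in every library, with medians of 12112.5, 19231 and 15157.5 UMIs against 9162, 10656.5 and 8765.5, and the part of depth in the splits by Cthrc1 was not tested. Under AngII no contrast could be told from counting error. Cells with and without Cthrc1 stood at 2.84 CPM (2.30 to 3.48) and 2.35 (1.55 to 3.41) in SHF AngII, and at 2.20 (1.28 to 3.52) and 1.08 (0.293 to 2.76) in CNC AngII, with overlapping intervals in both libraries. The group itself was larger under AngII, 1646 of 2640 fibroblasts in the SHF library and 470 of 842 in the CNC library, so the cells compared need not be the same population.

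The highest levels of Agtr1a were found outside the 3 classes. Mesothelial cells, which line the outer surface of the vessel and were taken from markers such as Msln and Upk3b, numbered 25 in SHF AngII. They held 21 Agtr1a UMIs, a level of 63.8 CPM (39.5 to 97.6), and 48.0% of them had a UMI at a median depth of 12762. Both mesothelial cells of CNC AngII had a UMI, a level of 99.4 CPM (12.0 to 359) from 2 UMIs, and the 9 of SHF baseline had 0, which allows up to 32.6 CPM there. All 4 mesothelial markers were detected in each library's group, at 4377 CPM summed in SHF AngII. Of these, Msln, Upk3b and Lrrn4 chose the cells, at 5 or more UMIs together, so the sum follows in part from the choice. Only Upk1b was not used. The choice also required fewer than 5 UMIs of Myh11 and 0 of Pdgfra. The 6 fibroblast markers summed to 4286 CPM in the same 25 cells, with Dpt at 0 and Pdgfra at 0 by the gate. Of 3 cardiomyocyte markers, Myl7 alone was detected there, at 1386 CPM. The part of these other markers' cells in the Agtr1a level was not tested.

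**Figure D1:**
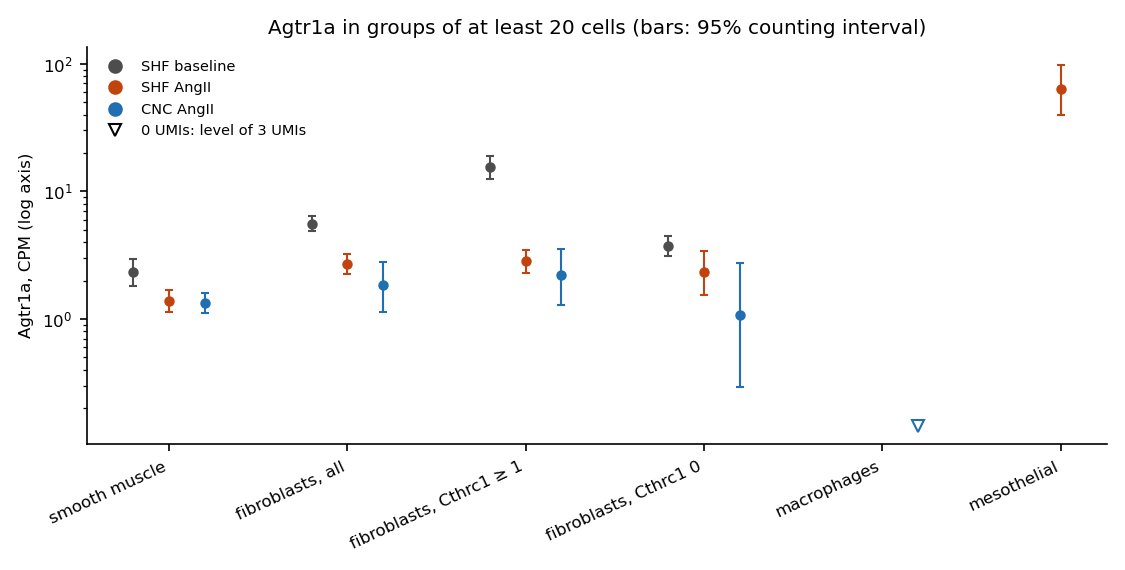
Agtr1a level in CPM on a log axis for groups of at least 20 cells, by library, with exact Poisson intervals at 95%; an open triangle marks the level of 3 UMIs where none was found. Baseline fibroblasts with Cthrc1 sit at 15.4 CPM and mesothelial cells of SHF AngII at 63.8 CPM, above the smooth muscle levels of 1.33 to 2.34 CPM.

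Agtr1b (3:20314473-20367177, minus strand), the other AT1 gene, was close to the limit of detection. It had 4, 4 and 7 UMIs in smooth muscle cells and 21, 8 and 4 in fibroblasts. Transcripts of both AT1 genes share 33 of the 2922 Agtr1a words of 50 bases, 1.13%. That share is of exact words over whole transcripts and not of the 3′ reads counted here, so reads assigned to the wrong gene were not measured. Agtr2 (X:21484544-21489164, plus strand), the AT2 receptor, had 0 UMIs in the smooth muscle cells of every library, which allows up to 0.102, 0.0432 and 0.0313 CPM. Fibroblasts had 16, 5 and 1 UMIs of it, a level of 0.422 CPM (0.241 to 0.686) at baseline. The log2 ratio of smooth muscle over fibroblasts there was at most -1.59, the upper end of its counting interval. Neither gene had a UMI in macrophages or endothelial cells.

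Agt (8:124556534-124569706, minus strand), the only precursor of angiotensin peptides, was also absent from smooth muscle counts, with 0 UMIs in 2259, 4649 and 6385 cells. Fibroblasts held 17, 21 and 13 UMIs, or 0.449 CPM (0.261 to 0.718), 0.468 (0.289 to 0.715) and 1.14 (0.604 to 1.94). By the upper ends of the counting intervals, the log2 ratio of smooth muscle over fibroblasts was at most -1.69, -3.01 and -4.67. In CNC AngII the fibroblast level was 2.43-fold that of SHF AngII, with a log2 ratio without a pseudocount of 1.28 (0.16 to 2.35), from 13 and 21 UMIs.

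Ace (11:105967945-105989964, plus strand), which makes AngII from angiotensin I, was highest in endothelial cells, the class it is known for, at 357, 361 and 412 CPM in 77, 38 and 33 cells. These groups were mixed. In them 5 endothelial markers summed to 3161, 2329 and 4035 CPM. The 6 fibroblast markers summed to 10833, 5441 and 1366 CPM there, and the 7 macrophage markers to 0, 170 and 4152. The part of these other markers' cells in the endothelial levels was not tested. Among the main classes Ace was higher in fibroblasts, at 177 CPM (172 to 181), 120 (117 to 124) and 161 (154 to 168), than in smooth muscle cells, at 75.0 (71.9 to 78.1), 38.8 (37.4 to 40.3) and 35.7 (34.5 to 36.9). Macrophages of CNC AngII stood at 2.503 CPM (1.87 to 3.28), with a UMI in 2.27% of cells against 72.9% of the fibroblasts of that library, at median depths of 11108.5 and 12379.5. The log2 ratio of smooth muscle over fibroblasts was -1.23, -1.61 and -2.14 in the 3 libraries, so the classes were further apart in the AngII libraries. Exons of Ace overlap those of Gm11651 on the other strand, and the counting is not stated to use strand.

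Under AngII, Ace was 1.93-fold lower than at baseline in SHF smooth muscle cells (log2 ratio -0.93) and 1.47-fold lower in SHF fibroblasts (-0.55). CNC AngII and SHF AngII lay close in smooth muscle cells (-0.12), whereas fibroblasts of CNC AngII were 1.34-fold higher (0.42). Within the AngII libraries Ace was not even across the cells of a class. Smooth muscle cells with at least 10 UMIs of Spp1, the secreted matrix protein osteopontin, stood at 86.5 CPM (76.2 to 97.8) in the 112 such cells of SHF AngII and 68.0 (62.6 to 73.6) in the 388 of CNC AngII, against 36.7 (35.3 to 38.2) and 32.4 (31.2 to 33.6) in the others. These cells were deeper, with median totals of 25222 and 21751 UMIs against 13152 and 13054. All 2259 smooth muscle cells of SHF baseline had fewer than 10 Spp1 UMIs, so the split by Spp1 has no baseline counterpart. Smooth muscle cells with a UMI of Tnnt2, a troponin that some outflow tract smooth muscle expresses, stood at 48.0 and 48.4 CPM in the AngII libraries, against 27.0 and 31.9 CPM in those without. At baseline the same split gave 77.9 and 67.6 CPM. In fibroblasts the split by Cthrc1 ran the other way under AngII: 93.4 CPM (90.1 to 96.7) with and 198 (190 to 207) without in SHF AngII, 134 (126 to 143) and 216 (202 to 232) in CNC AngII, but 171 (160 to 181) and 178 (173 to 182) at baseline. Fibroblasts without Cthrc1 in the AngII libraries were no lower in Ace than those at baseline. As given above, the group with Cthrc1 was larger under AngII and deeper in every library. The cells compared therefore need not be the same population, and the part of this in the Ace levels was not tested.

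Enpep (3:129269175-129332720, minus strand), which removes the first residue of AngII, had opposite ratios in the 2 classes. In smooth muscle cells it stood at 4.97 CPM (4.20 to 5.85), 8.85 (8.17 to 9.58) and 10.5 (9.82 to 11.1), and in fibroblasts at 3.01 (2.48 to 3.61), 0.779 (0.543 to 1.08) and 0.611 (0.246 to 1.26). None of the smooth muscle intervals overlapped each other. SHF AngII over SHF baseline was 1.78-fold higher in smooth muscle cells and 3.86-fold lower in fibroblasts. As a result the smooth muscle level was 1.65-fold that of fibroblasts in SHF baseline, 11.4-fold in SHF AngII and 17.1-fold in CNC AngII. The shares of smooth muscle cells with a UMI were 5.53%, 9.70% and 12.3%, and those of fibroblasts 2.28%, 1.25% and 0.594%. Median smooth muscle depths were 12441, 13336 and 13450 UMIs, and in cells thinned to 3000 UMIs the smooth muscle shares were 1.47%, 2.55% and 2.79%.

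Macrophages of CNC AngII also held Enpep, at 6.26 CPM (5.23 to 7.43). Of the 130 UMIs, 129 were in the 1349 macrophages with a UMI of Lyve1, a receptor typical of resident macrophages of vessel walls. They stood at 7.67 CPM (6.41 to 9.12), against 0.201 CPM from 1 UMI in the 455 macrophages with Ccr2, the chemokine receptor of recruited monocytes. Cells with both genes are in both counts.

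Atp6ap2 (X:12587801-12617049, plus strand) was level across smooth muscle cells at 76.4 CPM (73.3 to 79.6), 82.8 (80.7 to 84.9) and 79.4 (77.7 to 81.2). In fibroblasts it stood at 192 CPM (188 to 197) in SHF baseline and at 74.4 (71.9 to 77.0) and 72.4 (67.5 to 77.5) in the AngII libraries. Between smooth muscle cells and fibroblasts, the baseline fibroblasts thus stood apart, and they were 2.59-fold higher than those of SHF AngII. The few endothelial cells were also highest at baseline, at 141 CPM (116 to 171), 71.8 (49.4 to 101) and 70.8 (41.2 to 113). These endothelial groups were mixed, with fibroblast markers at 10833, 5441 and 1366 CPM summed. The part of fibroblast RNA in their Atp6ap2 level was not tested. The log2 ratio of SHF AngII over SHF baseline was 0.11 in smooth muscle cells and -1.36 in fibroblasts. Macrophages of CNC AngII stood at 206 CPM (200 to 213), with 225 (218 to 232) in those with Lyve1 and 147 (136 to 158) in those with Ccr2.

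Rgs2, which acts on Gq and is known in arteries as a target of nitric oxide signalling, was highest in macrophages among the classes of CNC AngII. There it stood at 79.3 CPM (75.5 to 83.2) with a UMI in 42.9% of cells, and at 63.7 CPM (60.0 to 67.6) in those with Lyve1, 116 (107 to 126) in those with Ccr2 and 167 (144 to 193) in the 129 with neither. In smooth muscle cells it stood at 24.1 CPM (22.4 to 25.9), 8.71 (8.03 to 9.43) and 10.4 (9.79 to 11.1), and in fibroblasts at 10.5 (9.52 to 11.6), 5.34 (4.69 to 6.07) and 3.67 (2.64 to 4.96). Baseline was highest in both classes. SHF AngII was 2.77-fold lower than SHF baseline in smooth muscle cells (log2 ratio -1.37, or -1.47 without a pseudocount). In fibroblasts it was 1.97-fold lower (-0.86, or -0.98 without a pseudocount). The slightly higher smooth muscle level of CNC AngII came in the library whose smooth muscle cells also carried more macrophage UMIs, and the part of those UMIs in it was not tested.

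In baseline fibroblasts, Rgs2 was concentrated in the 550 cells without a UMI of Pi16, a marker of adventitial fibroblasts. They stood at 44.4 CPM (38.8 to 50.6) and held 225 of the 399 UMIs, against 5.30 CPM (4.54 to 6.15) in the 3389 cells with Pi16. In SHF AngII the same groups stood at 6.70 (4.29 to 9.97) and 5.23 (4.55 to 5.97), so the group with a high level was not seen there. Egr1, Dusp1, Nr4a1 and Fos, 4 early response genes that tissue digestion can switch on, were also highest at baseline in both classes. Egr1 stood at 1708, 701 and 682 CPM in smooth muscle cells, Dusp1 at 1112, 561 and 531, Nr4a1 at 475, 233 and 221, and Fos at 3504, 2665 and 2272. Fibroblasts had 2348, 781 and 810 CPM of Egr1, 1175, 489.7 and 377 of Dusp1, 575, 322 and 277 of Nr4a1, and 3180.3, 1598 and 1501 of Fos. Their part in the Rgs2 difference was not tested.

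Rgs4, which acts on Gi and Gq, was higher in smooth muscle cells than in fibroblasts of every library. In smooth muscle cells it stood at 78.4 CPM (75.3 to 81.7), 87.1 (84.9 to 89.3) and 66.1 (64.5 to 67.8), in fibroblasts at 5.57 (4.84 to 6.37), 13.5 (12.4 to 14.6) and 13.6 (11.6 to 15.9), and in macrophages of CNC AngII at 1.11 (0.702 to 1.66). Smooth muscle levels were 14.1-fold, 6.48-fold and 4.85-fold those of fibroblasts. A UMI was found in 47.3%, 58.6% and 52.8% of smooth muscle cells. The smooth muscle intervals did not overlap, but the levels lay within 1.32-fold of each other. In fibroblasts SHF AngII had 2.42-fold the baseline level, a gene left out of the count by its mean level.

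The fibroblast share with an Rgs4 UMI was 3.20%, 12.2% and 12.4%, or 0.918%, 2.78% and 3.41% after thinning to 3000 UMIs. In SHF baseline the share before thinning was no higher than the 3.90% (0.811% to 10.97%) of 77 endothelial cells, at median depths of 9534 and 8452 UMIs, so the share by itself is not read as expression. The UMIs were not even over the baseline fibroblasts, with up to 9 in a cell. In SHF AngII endothelial cells had 7.89% (3 of 38), with an exact interval of 1.66% to 21.4% that includes the fibroblast share, and in CNC AngII macrophages had 1.30%. Median depths were 15485.5 and 9260 UMIs in fibroblasts and endothelial cells of SHF AngII, and 12379.5 and 11108.5 in fibroblasts and macrophages of CNC AngII. Within the AngII libraries fibroblasts with Cthrc1 had more Rgs4 than those without, 14.5 CPM (13.2 to 15.8) against 10.4 (8.65 to 12.5) in SHF AngII and 17.4 (14.6 to 20.7) against 5.65 (3.50 to 8.64) in CNC AngII. The 6 smooth muscle markers differed in the same way, with 1290, 4053 and 3954 CPM summed in fibroblasts and all 6 detected. Their part in the Rgs4 level was not tested. Smooth muscle cells with at least 10 UMIs of Spp1 were lower in Rgs4, 48.9 CPM (41.2 to 57.5) against 88.8 (86.5 to 91.1) in SHF AngII and 44.6 (40.3 to 49.2) against 68.3 (66.6 to 70.1) in CNC AngII.

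Rgs5, a gene known from pericytes and arterial smooth muscle, was the 1 counted member past 2-fold between the lineages. In smooth muscle cells it stood at 92.0 CPM (88.5 to 95.5), 60.8 (59.0 to 62.6) and 27.7 (26.7 to 28.8), 3 levels with no overlap. CNC AngII was 2.19-fold lower than SHF AngII (log2 ratio -1.10), and SHF AngII was 1.51-fold lower than SHF baseline (-0.59). The latter ratio was -1.73 when cells needed 1000 genes and at most 5% mitochondrial UMIs, and -0.38 under a stricter marker gate. The summed level of 5 pericyte markers in these cells was 226, 333 and 428 CPM, most of it Cspg4, which stood at 170, 286 and 371 CPM in the cells without an Rgs5 UMI. Their part in the Rgs5 level was not tested. Fibroblasts stood at 35.5 CPM (33.6 to 37.4), 52.9 (50.8 to 55.1) and 36.6 (33.2 to 40.3), so SHF AngII was the highest and the other libraries overlapped. Macrophages of CNC AngII stood at 0.530 CPM (0.264 to 0.948), with a UMI in 0.340% of cells against 12.8% of fibroblasts and 20.03% of smooth muscle cells there. The class order was not the same in all libraries: smooth muscle exceeded fibroblasts 2.59-fold in SHF baseline and 1.15-fold in SHF AngII, and fibroblasts exceeded smooth muscle 1.32-fold in CNC AngII. That last log2 ratio, -0.39, became 0.63 under the stricter marker gate and 0.20 when the gate used UMIs per 10000. Endothelial cells stood at 20.2, 126 and 91.6 CPM, with the UMIs in 2.60%, 7.89% and 6.06% of cells, a few cells in each library.

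**Figure D2:**
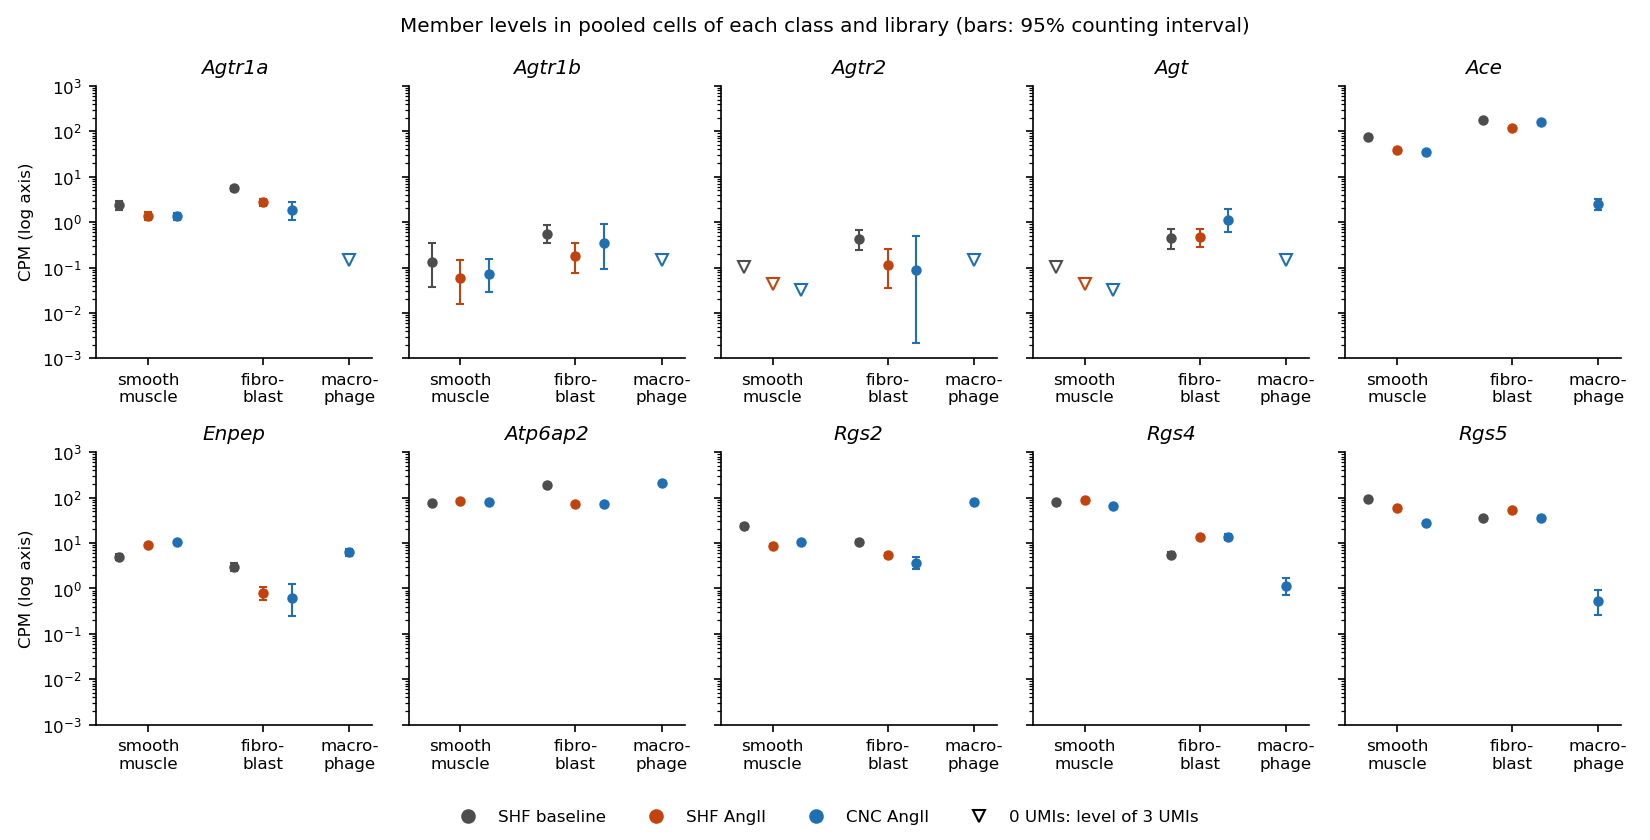
Level of each member in CPM, on a log axis, in smooth muscle cells and fibroblasts of the 3 libraries and in macrophages of CNC AngII; bars are exact Poisson intervals at 95%, and open triangles mark the level of 3 UMIs where none was found. Rgs4 in smooth muscle cells spans 66.1 to 87.1 CPM, whereas Rgs5 steps from 92.0 to 60.8 to 27.7 CPM.

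The neighbours Rgs4 and Rgs5 were spread over smooth muscle cells in different ways. In cells thinned to 3000 UMIs, the variance of Rgs4 counts over their mean was 1.21, 1.15 and 1.11, close to the 1.008, 1.004 and 1.006 of Atp6ap2, and no more than 5 UMIs were found in a cell. For Rgs5 it was 4.42, 2.74 and 2.05, with up to 25, 12 and 11 UMIs. At least 5 thinned Rgs5 UMIs were found in 1.20%, 0.626% and 0.157% of smooth muscle cells, and at least 1 in 14.2%, 10.98% and 6.31%. So in thinned cells the lower levels under AngII and in the CNC library came with fewer cells of high Rgs5 and fewer cells with any. Before thinning, the share with any was 27.7% (25.8% to 29.6%), 27.3% (26.0% to 28.6%) and 20.03% (19.1% to 21.0%). Median depths were 12441, 13336 and 13450 UMIs. Before thinning, the share was thus lower in CNC AngII, whereas both SHF libraries overlapped.

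**Figure D3:**
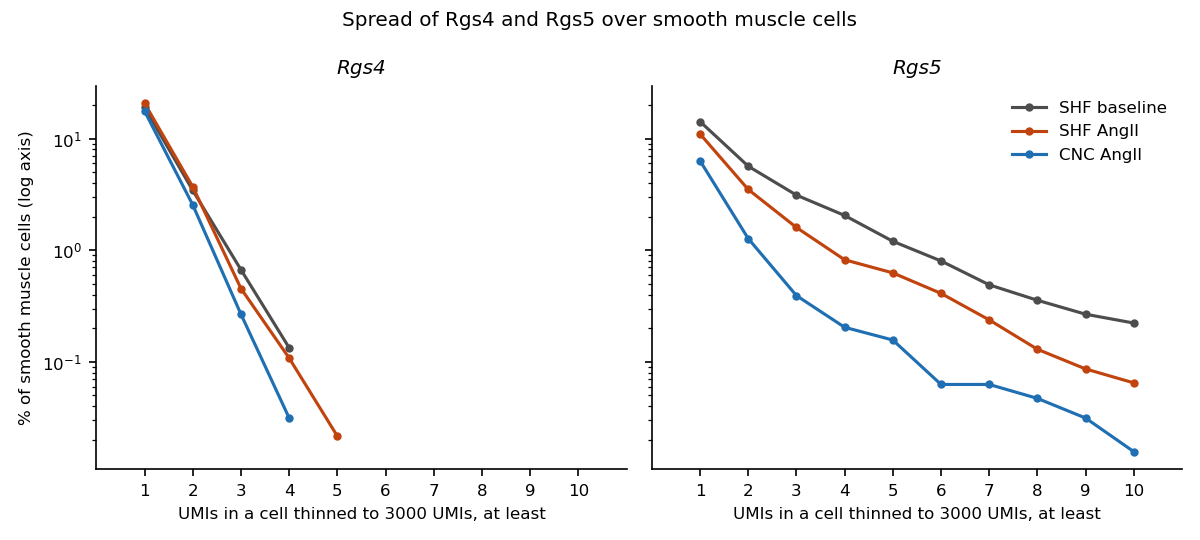
Share of smooth muscle cells (log axis) with at least the given number of UMIs of Rgs4 or Rgs5, after each cell was thinned to 3000 UMIs. The Rgs4 lines of the 3 libraries lie close and end at 4 or 5 UMIs, whereas the Rgs5 lines reach 10 and are separate throughout, from 14.2%, 10.98% and 6.31% at 1 UMI.

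Smooth muscle cells with at least 5 Rgs5 UMIs before thinning numbered 165, 242 and 101, at median depths of 13202, 16572.5 and 18056 UMIs, against 12266, 12192 and 12888 in cells with none. Rgs4 was higher in them in each library: 143 against 67.8 CPM, 112 against 82.5 and 99.6 against 62.3. In thinned cells the share with Rgs4 was 27.3%, 26.1% and 26.1% among those with Rgs5 and 17.6%, 19.9% and 17.0% among those without. Myh11 stood at 2372, 1829 and 1574 CPM in the first group and 2407, 1939.6 and 1821 in the second, so the 2 groups were close in SHF baseline and SHF AngII. Vcan, a large proteoglycan of the vessel wall, was among the leading genes in all libraries, at 97.8, 110 and 107 CPM against 23.1, 48.8 and 55.6. It led in both SHF libraries. In CNC AngII other genes led, Sfrp2 at 123 against 31.5 CPM, Cks2 at 99.6 against 29.3 and Ube2c at 83.8 against 28.0. Sncg, a synuclein, was among the lowest, at 29.0, 38.5 and 35.3 CPM against 120, 134 and 103. Of the pericyte markers, Kcnj8 was higher, at 24.5, 29.2 and 29.6 CPM against 12.1, 10.4 and 13.5, as was Abcc9, at 36.5, 25.7 and 62.9 CPM against 21.3, 15.0 and 30.6. Cspg4 stood at 187, 293 and 387 CPM against 170, 286 and 371. Higd1b had 0, 4 and 1 UMIs against 1, 25 and 23, and Notch3 was not higher, at 8.71, 8.66 and 8.69 CPM against 19.5, 9.97 and 8.98. These cells were picked by their own Rgs5 counts, so the genes describe them and test nothing.

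The 96 baseline fibroblasts with at least 5 Rgs5 UMIs had other leading genes. Rspo3 (142 against 6.79 CPM), Wif1 (881 against 48.3), Cd74 (133 against 11.1) and Tbx20 (207 against 18.9) led. The first 2 are secreted regulators of WNT signalling, Cd74 is an antigen presentation gene and Tbx20 is a heart transcription factor, while Pi16 stood at 584 against 3718 CPM. They held 0 Agtr1a UMIs, and Rgs4 stood at 20.4 against 3.45 CPM. Some smooth muscle markers were higher too, Acta2 at 1421 against 504 CPM, Tagln at 1544 against 528 and Lmod1 at 100.3 against 38.1, whereas Cnn1 stood at 6.03 against 6.37. Median depths were 12216.5 and 9344 UMIs, and the part of depth and of these markers was not tested. Over all fibroblasts, those without Pi16 had 91.7 CPM of Rgs5 (83.6 to 100.4) in SHF baseline and 92.1 (82.5 to 103) in SHF AngII, against 26.8 (25.1 to 28.6) and 49.5 (47.4 to 51.7) with Pi16. In CNC AngII the values were 38.3 (28.9 to 49.9) and 36.3 (32.7 to 40.3), with overlapping intervals.

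The members past 2-fold are set beside all genes here. From SHF baseline to SHF AngII, 6.38% of 7001 genes did so in smooth muscle cells (2.86% higher, 3.53% lower) and 15.3% of 7694 in fibroblasts (4.64% higher, 10.7% lower). In smooth muscle cells 1 of the 5 members with enough counts did, Rgs2 on the lower side, and Ace was just short of it at -0.93. In fibroblasts 1 of 3 did, Atp6ap2, also lower. Between CNC AngII and SHF AngII 0.798% of 6766 genes were past 2-fold in smooth muscle cells (0.443% higher, 0.355% lower), among them 1 of 4 members, Rgs5, on the lower side. In fibroblasts 0.61% of 7216 genes (0.457% higher, 0.152% lower) and 0 of 4 members were. The median log2 ratio of the counted members was -0.59, -0.55, -0.26 and -0.01 in these 4 comparisons, beside -0.10, -0.21, 0.00 and 0.01 over all counted genes. Both comparisons of a class share the SHF AngII library.

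Between classes the shares were larger. In SHF baseline 21.5% of 7735 genes were past 2-fold between smooth muscle cells and fibroblasts, and all 5 counted members were, Rgs2, Rgs4 and Rgs5 higher in smooth muscle cells, with 7.58% of genes, and Ace and Atp6ap2 lower, with 13.9%. In SHF AngII 22.4% of 7192 genes (9.58% higher, 12.8% lower) and 2 of 4 members were, and in CNC AngII 21.4% of 7247 genes (9.23% higher, 12.1% lower) and 2 of 4 members. In both it was Rgs4 that was higher and Ace that was lower. Enpep was under the minimum mean of 10 CPM in each.

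**Figure D4:**
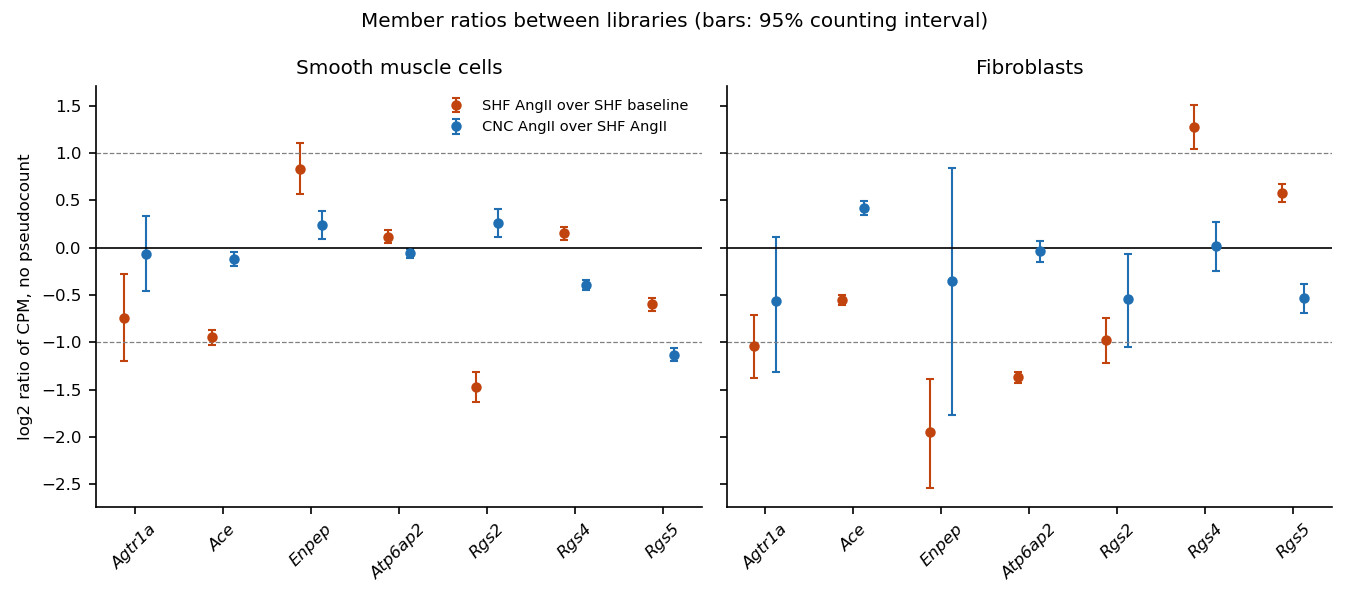
Log2 ratio of CPM without a pseudocount for 7 members in smooth muscle cells (left) and fibroblasts (right), for SHF AngII over SHF baseline and CNC AngII over SHF AngII; bars are conditional binomial intervals at 95% and dashed lines mark 2-fold. Enpep, Atp6ap2 and Rgs5 lie on opposite sides of 0 in the 2 classes for AngII over baseline, and Rgs5 is lowest among the smooth muscle ratios of CNC AngII over SHF AngII.

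Other genes of the pathway were read from 6 lists. From SHF baseline to SHF AngII, their counts stand beside 2.86% higher and 3.53% lower over all genes in smooth muscle cells. In fibroblasts these shares were 4.64% and 10.7%. Of 11 further enzymes and receptors of the renin-angiotensin system in all files, 4 were counted in smooth muscle cells and 8 in fibroblasts from baseline to AngII. Lnpep, the AT4 receptor and an aminopeptidase, was higher in both, from 23.3 to 90.9 CPM in smooth muscle cells (log2 ratio 1.92) and from 14.7 to 39.0 in fibroblasts (1.35), and stood at 84.7 and 39.8 CPM in CNC AngII. Ren1, renin itself, was a fibroblast transcript here: 96.1, 29.998 and 13.7 CPM in fibroblasts and 1.02, 0.216 and 0.0313 in smooth muscle cells, with CNC AngII past 2-fold lower than SHF AngII (-1.08). Some mouse strains carry another renin gene of near-identical sequence, and the background strain is not given, so Ren1 counts are uncertain. In the baseline fibroblasts with at least 5 Rgs5 UMIs, Ren1 was nearly absent at 0.754 CPM. Mme, the neutral endopeptidase neprilysin, was lower in fibroblasts under AngII, from 26.1 to 5.12 CPM (-2.14), and Anpep, aminopeptidase N, stood at 68.8 and 36.6 CPM (-0.89). In this list 1 gene was past 2-fold higher in smooth muscle cells, and 1 higher and 2 lower in fibroblasts, with medians of 0.22 and 0.03 against -0.10 and -0.21 over all counted genes.

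Of 15 other RGS genes, 5 were counted in smooth muscle cells and 3 in fibroblasts. Rgs19, a regulator of Gi and Gq signals, was past 2-fold higher under AngII in both, from 6.84 to 15.4 CPM and from 14.5 to 32.6 CPM. Rgs3 stood at 33.5, 46.2 and 50.6 CPM in smooth muscle cells. The list's medians were 0.45 and 0.16. None of the list was lower past 2-fold, and none differed past 2-fold between the AngII libraries. Of 18 genes that carry the AT1 signal, 14 were counted in smooth muscle cells and 0 were past 2-fold, with a median of -0.22 against -0.10 over all genes. The alpha subunit Gnaq was just short of it, from 61.5 to 30.5 CPM (-0.99), as was Itpr1, the calcium release channel of the endoplasmic reticulum, from 101 to 51.8 CPM (-0.95). Gna11, the closest relative of Gnaq, stood at 132 and 149 CPM. In fibroblasts Itpr1 was past 2-fold lower, from 53.0 to 20.7 CPM (-1.32), 1 of 16 counted, with a median of -0.43. Between the AngII libraries 0 of 14 and 0 of 15 were past 2-fold.

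Among 8 genes of receptor desensitisation, Arrb1, a beta-arrestin, was past 2-fold lower in fibroblasts, from 24.3 to 9.69 CPM (-1.24), and Agtrap, which binds the AT1 receptor tail, stood at 11.4, 13.5 and 13.3 CPM in smooth muscle cells and 27.3, 37.2 and 33.6 in fibroblasts. The list's medians were 0.22 in smooth muscle cells and -0.11 in fibroblasts. Of 10 receptors for other vasoconstrictors 2 were counted in each class. Tbxa2r, the thromboxane receptor, stood at 47.6, 59.4 and 52.5 CPM in smooth muscle cells, and Ednra, an endothelin receptor, was past 2-fold lower in fibroblasts, from 21.0 to 9.18 CPM (-1.11). Of 13 genes known to respond to AT1 signals, 9 were counted in smooth muscle cells and 12 in fibroblasts. Egr1, an early growth response transcription factor, was past 2-fold lower in both (-1.28 and -1.59). In fibroblasts Ccl2, a chemokine for monocytes, went from 103 to 473 CPM (2.18) and Hbegf from 14.7 to 38.4 CPM (1.33). Among these genes 0 were past 2-fold higher and 2 lower in smooth muscle cells, and 2 higher and 4 lower in fibroblasts. Of the lower genes, only the ratio of Egr1 is given. The shares over all counted genes were 2.86% higher and 3.53% lower in smooth muscle cells, and 4.64% and 10.7% in fibroblasts. The list's medians were -0.47 and -0.68, against -0.10 and -0.21 over all counted genes. Egr1 is among the early response genes, named above, that tissue digestion can switch on. The part of digestion in this list's ratios was not tested. Between the AngII libraries 0 of the list were past 2-fold in either class.

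**Figure D5:**
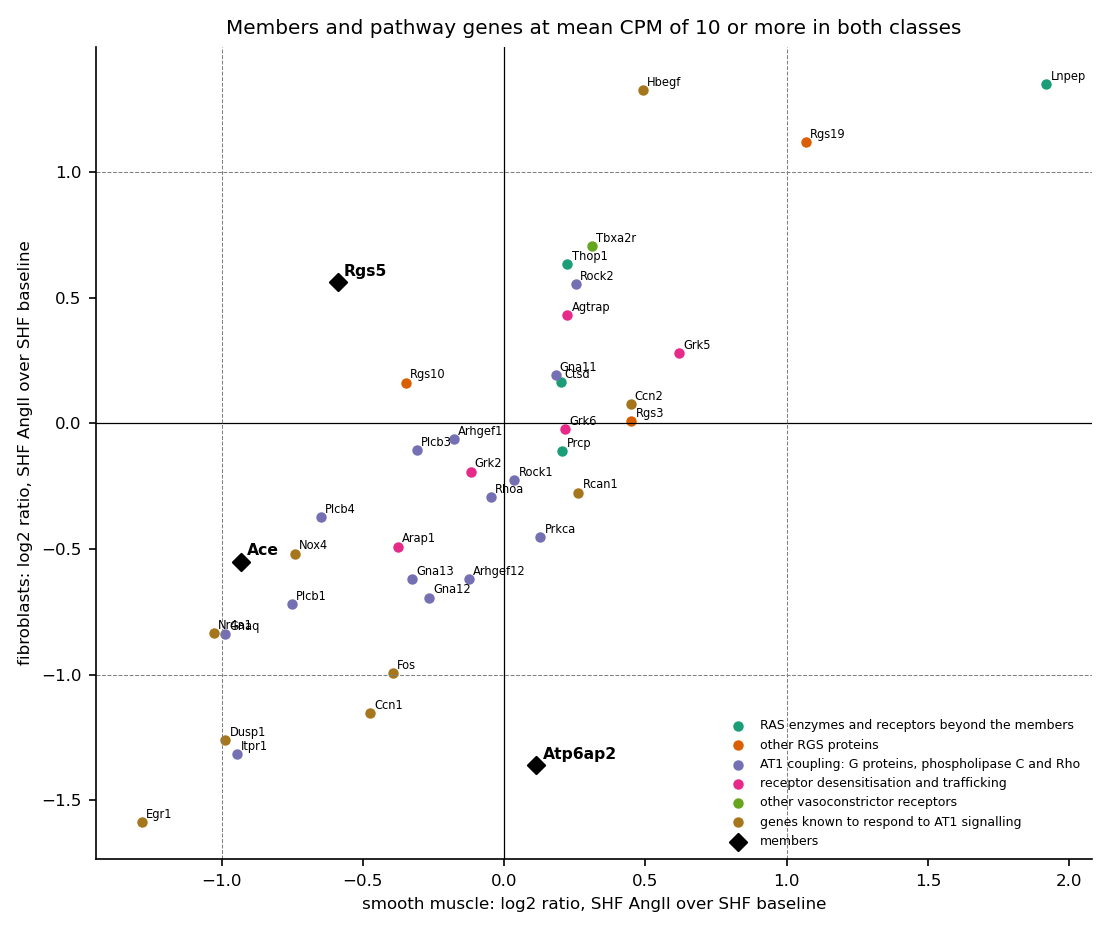
Log2 ratio of SHF AngII over SHF baseline in smooth muscle cells (horizontal) and fibroblasts (vertical) for 36 list genes and 3 members with a mean of at least 10 CPM in both classes; dashed lines mark 2-fold. Rgs5 and Atp6ap2 sit off the diagonal, Rgs5 at -0.59 and 0.56 and Atp6ap2 at 0.11 and -1.36.

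The genes whose level followed a member most closely over the 7 profiles of at least 50 cells were found by Pearson's r of log2 (CPM + 1), among genes that reached 50 CPM in some profile. The profiles share libraries and depth, and r is given as a description. For Agtr1a they were Daam1 (0.996), Tmem64 (0.987) and Reck (0.986). Daam1 stood at 35.6, 23.9 and 22.9 CPM in smooth muscle cells, 73.1, 34.3 and 30.1 in fibroblasts and 8.09 in macrophages. For Rgs4 they were the contractile and cytoskeletal genes Tagln (0.999), Actn1 (0.994) and Tpm1 (0.994), with Tagln at 606, 1965 and 1844 CPM in fibroblasts. For Rgs5 they were Grb14 (0.994), Hes1 (0.988) and Hsd17b10 (0.985), with Grb14 at 70.0, 44.4 and 33.8 CPM in smooth muscle cells and 30.8, 50.2 and 32.1 in fibroblasts.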

How the data were processed

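The count files hold raw UMI counts per gene and cell barcode, as the authors deposited them, with no normalisation. Per the submitters' processing notes the tools were fastp, STAR 2.5 and HTSeq 0.6.1 and the build was mm10, and the gene annotation is not given in the sources used here. Gene coordinates are those of GENCODE M21 on GRCm38, the same build, and promoter letters are RefSeq's. The gene lists were joined by symbol, with 518 baseline genes joined through a unique synonym and 13 duplicated names left out. The deposited files held 92474476, 147854476 and 150954701 UMIs in 9412, 11166 and 11098 barcodes. Barcodes were kept from 500 genes upward if mitochondrial UMIs made up no more than 10%, and doublets called by Scrublet in scanpy 1.11.5 were removed (2.29%, 1.96% and 2.61% of those called on). Counts were summed per class and library and scaled to all UMIs of the class. Intervals are exact Poisson for levels, conditional binomial for ratios and Clopper-Pearson for shares, all at 95%, for counting error only. A count of 0 was given the limit of 3 UMIs.

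Besides the members, the genes to name were those of the pathway lists past 2-fold at a mean of at least 10 CPM, or the 4 largest ratios of a list, and the 3 genes most like Agtr1a, Rgs4 and Rgs5. Not all of them are printed, and Gnaq, Rgs3, Gna11, Agtrap and Tbxa2r, the groups split by Cthrc1, Spp1, Tnnt2, Pi16, Lyve1 and Ccr2, and the cells with high Rgs5 were chosen with values in view. The members and lists were chosen with earlier results of these data known. The list of AT1 response genes leaves out 1 gene that is not reported here. With 1 library per group no p-value can be had. The calculation was tested on simulated data. The 14 alternatives tried, among them TMM scaling in edgeR 4.0.16 and cells thinned to 3000 UMIs, are described at the end.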

Additional observations from a re-analysis of the deposited data

Results flagged for a closer look

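These results are listed because smooth muscle cells and fibroblasts of the same libraries went in opposite directions, with counting intervals that exclude 0 in both. With 1 library per group, no such difference was tested. From SHF baseline to SHF AngII, the log2 ratio of Enpep was 0.72 in smooth muscle cells and -1.17 in fibroblasts. Without a pseudocount these Enpep ratios were 0.83 and -1.95. That of Atp6ap2 was 0.11 in smooth muscle cells and -1.36 in fibroblasts. Rgs5 stood at -0.59 in smooth muscle cells and 0.56 in fibroblasts. Between CNC AngII and SHF AngII, Ace stood at -0.12 in smooth muscle cells and 0.42 in fibroblasts, and Rgs2 at 0.24 and -0.44.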

How the results depend on the processing

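Each count of members past 2-fold was recomputed under 14 alternatives. From SHF baseline to SHF AngII the count in smooth muscle cells was 1, with 3 under a stricter cell filter (Ace, Rgs2 and Rgs5 lower), 2 under a stricter marker gate (Ace and Rgs2 lower), and 0 with a pseudocount of 10 CPM or a minimum mean of 50 CPM. In fibroblasts it was 1, with 2 when totals left out mitochondrial and ribosomal protein genes (Rgs4 higher, Atp6ap2 lower) and 3 with no gene minimum (Rgs4 higher, Enpep and Atp6ap2 lower). Between CNC AngII and SHF AngII the count in smooth muscle cells went from 1 to 0 with a pseudocount of 10 CPM or a minimum of 50 CPM. Between classes, it went from 5 to 3 in SHF baseline with the minimum of 50 CPM, and in CNC AngII from 2 to 5 with no gene minimum and to 1 with 50 CPM. A higher pseudocount or minimum leaves out low genes by construction. The cause of the other changes was not tested. Of 348 recomputed member ratios, 0 past 2-fold changed sign, and 7 small ratios did. In 238 of the 348 the change stayed within counting error, taken from the width of the main ratio's interval. In 110 it went beyond it. The smooth muscle ratio of Rgs5 from baseline to AngII ranged from -1.73 to -0.38, and its ratio of smooth muscle over fibroblasts in CNC AngII from -0.66 to 0.63, so the class order there depends on the setting. No paired analysis was possible because each group has 1 library, and no library could be left out. Agtr1b, Agtr2 and Agt are limited by depth, with at most 21 UMIs in a class.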
